A study of Mus musculus with 2 samples.

Results

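A set of 7 microRNA genes known from myelinating glia, Mir338, Mir219a-1, Mir219a-2, Mir138-1, Mir138-2, Mir204 and Mir211, was described in mouse gastrocnemius, the large calf muscle. They were found by their Ensembl identifiers, and all 7 were present among the 2202 microRNA genes of the deposited tables. The genes were chosen from these same counts, read on the strand of each gene, with earlier results known, so their levels and their differences between libraries are given as a description without a test. The muscle came from male B6CASTF1/J mice aged 36 days, a first-generation hybrid of C57BL/6J and CAST mice, with no treatment given in the labels. The series holds 1 group of 2 libraries, replicates 1 and 2, described as separate males although they carry the same donor identifier. Alleles from the CAST parent can differ from the mm10 genome, and their part in the counts was not tested.

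Schwann cells wrap the motor and sensory axons of peripheral nerves in myelin, and a whole muscle contains such nerve branches. In the central nervous system of mice, miR-219 and miR-338 push oligodendrocyte precursors towards myelin formation by repressing genes that keep them dividing, and miR-138 is switched on alongside them. The relatives miR-204 and miR-211 are best known from the retinal pigment epithelium and from melanocytes, and are carried in introns of ion channel genes. The tables measure microRNAs alone, so no protein-coding Schwann cell marker was available to check the label. The genes are therefore called glial by background knowledge, not by a measurement here.

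The mature sequences show which of these genes can be told apart by a short read. They were read from RefSeq on build GRCm38.p6, which held hairpins for all 7 genes at the GENCODE M21 coordinates and with identical bases. Each is written from 5′ to 3′ with the seed, bases 2 to 8, in capitals. The seed is the stretch that pairs with target messenger RNAs.
miR-338-3p, chr11:120014781-120014802, minus strand: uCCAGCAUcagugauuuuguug
miR-338-5p, chr11:120014816-120014837, minus strand: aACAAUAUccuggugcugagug
miR-3065-5p, chr11:120014780-120014801, plus strand: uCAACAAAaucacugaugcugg
miR-219a-5p, chr17:34025052-34025072 and chr2:29845689-29845709, both minus strand: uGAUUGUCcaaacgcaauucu
miR-219a-1-3p, chr17:34025010-34025031, minus strand: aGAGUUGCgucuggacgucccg
miR-138-5p, chr9:122682898-122682920 and chr8:94324312-94324334, both plus strand: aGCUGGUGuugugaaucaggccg
miR-138-1-3p, chr9:122682936-122682957, plus strand: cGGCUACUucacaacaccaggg
miR-138-2-3p, chr8:94324359-94324379, plus strand: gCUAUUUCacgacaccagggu
miR-204-5p, chr19:22750610-22750631, plus strand: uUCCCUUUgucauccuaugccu
miR-211-5p, chr7:64205831-64205852, plus strand: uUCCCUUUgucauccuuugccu

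By seed, the 5′ arms fall into separate families, and miR-204-5p and miR-211-5p are the pair of genes that share one while differing elsewhere. These differ by 1 base, A17U, counted from the 5′ end with the base of miR-204-5p first. The seeds of miR-338-3p, miR-219a-5p and miR-138-5p were found in 0 other mature sequences of the 1679 distinct names in the RefSeq table. The longest run shared by the Mir204 and Mir211 hairpins was 17 bases. By contrast, miR-219a-5p is whole in both the Mir219a-1 and Mir219a-2 hairpins, whose longest shared run was 22 bases, and miR-138-5p is whole in both Mir138 hairpins, whose longest shared run was 24 bases.

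That sharing sets what the counts of each gene can hold. The deposited tables have a separate row for reads aligned to several loci, amounting to 70.4% of the library in replicate 1 and 73.3% in replicate 2, and such reads are taken here to enter no gene's count. For Mir338, Mir204 and Mir211, 0 of their 18-base windows occurred in another of the 2202 annotated hairpins. For Mir138-2 the share was 13.0%, for Mir138-1 8.54%, for Mir219a-2 6.25% and for Mir219a-1 5.38%. The counts of these 4 genes can therefore lack reads of the shared 5′ arm and are uncertain as totals. For scale, the summed count of both Mir138 genes in replicate 1 was 0.00687% of the multi-locus reads of that library, and that of both Mir219a genes was 0.000367%. No genome sequence was used, so matches outside annotated hairpins were not examined.

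The genes also differ in where they lie. Mir338 (ENSMUSG00000065600.1) occupies chromosome 11 from 120014765 to 120014862 on the minus strand, in an intron of all 6 Aatk transcripts that span it. Aatk encodes a kinase abundant in the nervous system. Mir204 (ENSMUSG00000065507.3, chromosome 19, 22750605 to 22750672, plus strand) is intronic in all 18 spanning transcripts of the ion channel gene Trpm3. Mir211 (ENSMUSG00000065585.1, chromosome 7, 64205806 to 64205911, plus strand) is intronic in all 12 of its relative Trpm1, which melanocytes express.

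Mir138-1 (ENSMUSG00000065414.1, chromosome 9, 122682876 to 122682974, plus strand) lies within an exon of Gm47135, annotated as a transcribed pseudogene. Mir138-2 (ENSMUSG00000065512.3, chromosome 8, 94324311 to 94324381, plus strand) lies within an exon of the long noncoding RNA C78859. Mir219a-1 (ENSMUSG00000065555.1, chromosome 17, 34024983 to 34025092, minus strand) overlaps an exon of the long noncoding RNA Gm26940 over 88 of its 110 bases. Mir219a-2 (ENSMUSG00000065485.1, chromosome 2, 29845631 to 29845727, minus strand) has no host gene on its strand.

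Same-strand reads of annotated microRNA genes numbered 4134880 in replicate 1 and 3219740 in replicate 2. Levels are in CPM, the count per 1000000 of these reads, and the 95% intervals beside counts are exact Poisson intervals that cover counting error only. A read spans a whole mature microRNA, so CPM was not divided by length. The order of the 7 genes was the same when it was divided by hairpin length, with Mir338 at 2817 and Mir204 at 205 CPM per 100 bases of hairpin. Mir206, a microRNA of skeletal muscle, was counted 106820 times in replicate 1 and 92373 times in replicate 2.

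Among reads assigned to 1 gene, Mir338 had the highest count of the glial microRNA genes in this muscle. It had 17718 counts in replicate 1 (95% interval 17458 to 17981) and 3980 in replicate 2 (3857 to 4106). In CPM this was 4285 in replicate 1 and 1236 in replicate 2, a mean of 2761 ± 2156 (SD, n = 2). By these reads the gene ranked in place 33 of 2202 in replicate 1, where 582 genes had a count. In replicate 2, where 531 genes had a count, it ranked in place 55. It made up 91.4% of the summed counts of the 7 genes in replicate 1 and 85.1% in replicate 2. The Mir138 and Mir219a counts in these sums can lack reads of the shared 5′ arm, so the shares are uncertain. The CPM of Mir338 was higher in replicate 1. In whole tissue, fewer cells of a type and less RNA per cell cannot be told apart.

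Mir204 came next, with 645 counts in replicate 1 and 394 in replicate 2, or 156 and 122 CPM. Its mean was 139 ± 23.8 CPM (SD, n = 2), at place 149. The CPM intervals, 144 to 169 in replicate 1 and 111 to 135 in replicate 2, cover counting error only and do not overlap. Its relative Mir211 was counted 18 times in replicate 1 and 15 times in replicate 2, or 4.35 and 4.66 CPM, with Poisson intervals of 10.7 to 28.4 counts and 8.40 to 24.7 counts. In CPM the intervals ran from 2.58 to 6.88 in replicate 1 and from 2.61 to 7.68 in replicate 2, and they largely overlap.

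The Mir138 genes, whose product in mice accompanies miR-219 and miR-338 in oligodendrocytes, had intermediate counts. Like those of the Mir219a genes, these counts can lack reads of the shared 5′ arm. Mir138-1 was counted 673 times in replicate 1 and 192 times in replicate 2, or 163 and 59.6 CPM. For Mir138-2 the counts were 281 and 70, or 68.0 and 21.7 CPM. Both genes had a higher CPM in replicate 1. Their means were 111 ± 72.9 and 44.8 ± 32.7 CPM (SD, n = 2).

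The Mir219a genes had low counts, which can lack reads of their shared 5′ arm. Mir219a-2 was counted 38 times in replicate 1 and 15 times in replicate 2. In CPM this was 9.19 in replicate 1, with an interval of 6.50 to 12.6, and 4.66 in replicate 2, with an interval of 2.61 to 7.68. Mir219a-1 was counted 13 times in replicate 1 and 11 times in replicate 2, or 3.14 and 3.42 CPM. The intervals of the libraries overlap for both genes. The limit that a count of 0 sets is 0.726 CPM in replicate 1, against 0.932 CPM in replicate 2, and both genes lie above it in both libraries.

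**Figure D1:**
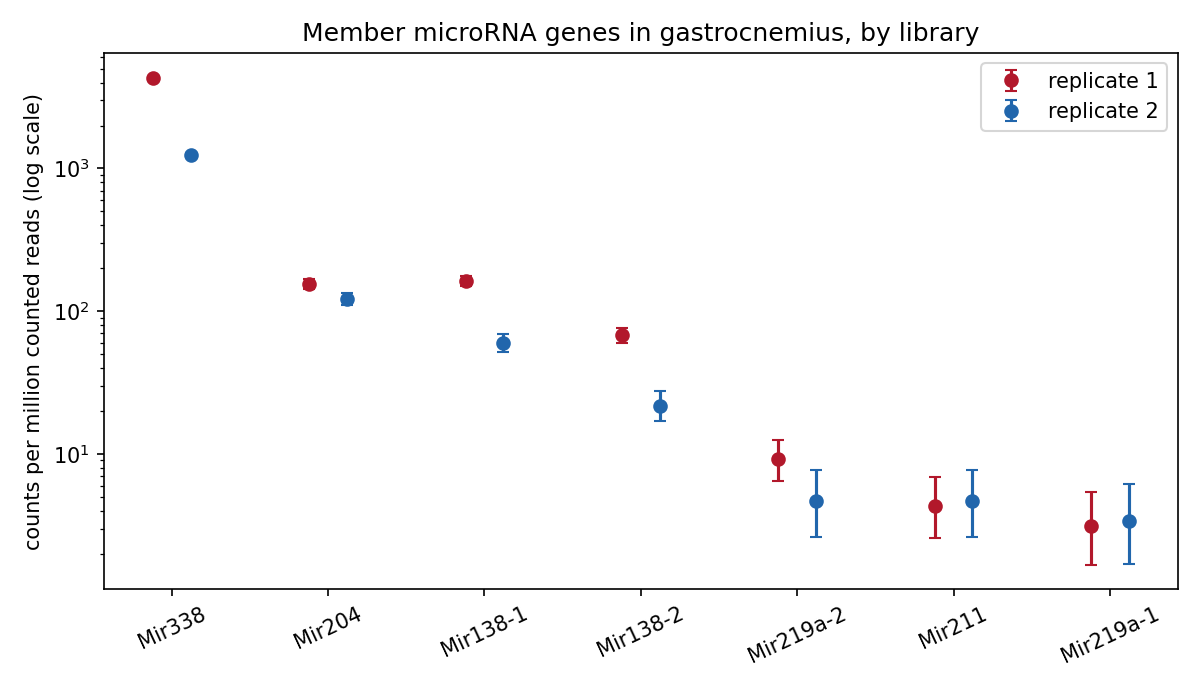
Level of each glial microRNA gene in CPM on a log axis, with replicate 1 in red left of replicate 2 in blue and exact Poisson 95% intervals as bars. Among reads assigned to 1 gene, Mir338 stands more than an order of magnitude above the others in each library. The Mir138 and Mir219a counts can lack reads of the shared 5′ arm, so their distance from Mir338 is uncertain. Mir338, both Mir138 genes, Mir204 and Mir219a-2 have the higher CPM in replicate 1.

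In order of mean CPM the genes ran Mir338, Mir204, Mir138-1, Mir138-2, Mir219a-2, Mir211 and Mir219a-1. Mir204 and Mir138-1 changed places between the libraries, with a difference of Mir204 minus Mir138-1 of −6.77 CPM in replicate 1 and 62.7 CPM in replicate 2. Mir138-1 and Mir138-2, and also Mir219a-2 and Mir211, differed in mean by less than the larger SD of the pair. Mir338 and Mir204, Mir138-2 and Mir219a-2, and Mir211 and Mir219a-1 differed by more. An SD of 2 libraries is imprecise and can fall below counting error. For Mir211 and Mir219a-1 the CPM counting intervals overlap, at 2.58 to 6.88 and 1.67 to 5.38 in replicate 1. In replicate 2 they also overlap, at 2.61 to 7.68 and 1.71 to 6.11. Within each library Mir138-1 exceeded Mir138-2. The counting intervals of that log2 ratio were 1.06 to 1.47 in replicate 1 and 1.05 to 1.87 in replicate 2. Together the 7 genes held 0.469% of counted reads in replicate 1, with a Clopper-Pearson 95% interval of 0.462 to 0.475, against 0.145% in replicate 2, with an interval of 0.141 to 0.149. Without Mir338 they held 0.0403% in replicate 1 and 0.0216% in replicate 2. The Mir138 and Mir219a counts in these shares, and their places in the order, can lack reads of the shared 5′ arm.

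The strand columns matter for 3 of the 7 genes, since each overlaps an annotated microRNA on the opposite strand. Mir3065 lies opposite Mir338 over 87 bases, and miR-3065-5p, printed above, is complementary to miR-338-3p over 21 of its 22 bases. On its own strand Mir3065 was counted 6 times in replicate 1 and 2 times in replicate 2. Of the reads on either strand of Mir338, those on the opposite strand made up 0.0339% in replicate 1, with a Clopper-Pearson 95% interval of 0.0124 to 0.0737, against 0.0502% in replicate 2, with an interval of 0.00608 to 0.181. The reads of this locus thus came almost wholly from the strand of Mir338.

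Where strand was ignored, Mir338 had 0 counts in both libraries, because its reads are ambiguous there. The reads on both strands of the locus amounted to 1.79% of the ambiguous reads in replicate 1 and 0.478% in replicate 2. Mir219a-1, opposite Mir219c, and Mir219a-2, opposite Mir219b, also had 0 counts in that column. Mir219b and Mir219c had 0 counts on their own strands in both libraries. Both Mir138 genes, Mir204 and Mir211 had equal counts in the same-strand column and in the column that ignores strand, and 0 reads on the opposite strand. Of 474 genes with same-strand counts in both libraries, 30 had 0 where strand was ignored.

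Ratios between genes within a library do not depend on how libraries are scaled. Mir138-1 exceeded Mir138-2 in both libraries, by log2 ratios of 1.26 in replicate 1 and 1.45 in replicate 2, a mean of 1.35 ± 0.13 (SD, n = 2) or 2.56-fold. The pair of Mir138 genes kept nearly the same proportion while both differed between the libraries. This proportion is that of reads assigned to 1 gene and can lack reads of the shared 5′ arm. Mir204 exceeded Mir211 by 5.12 in replicate 1 and 4.67 in replicate 2 on the log2 scale, a mean of 4.90 ± 0.32 or 29.8-fold, although their 5′ arms share a seed.

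Mir219a-2 exceeded Mir219a-1 by a log2 ratio of 1.51 in replicate 1 and 0.43 in replicate 2. In replicate 2 the counting interval of this ratio ran from −0.77 to 1.71 and so included equal levels. Mir338 exceeded Mir3065 by log2 ratios of 11.41 in replicate 1 and 10.64 in replicate 2, with the few Mir3065 reads limiting the precision. These pair values use counts plus 0.5.

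Pairs added after the values were seen compared Mir338 with the other genes of intermediate level. Mir338 exceeded Mir138-1 26.3-fold in replicate 1 and 20.7-fold in replicate 2, but the Mir138-1 counts can lack reads of the shared 5′ arm. Against Mir204, Mir338 stood 27.4-fold higher in replicate 1 and 10.1-fold higher in replicate 2. Mir338 and Mir138-1 were in closer proportion across the libraries than Mir338 and Mir204. Still, the counting intervals of the log2 ratio of Mir338 over Mir138-1 did not overlap. They ran from 4.61 to 4.83 in replicate 1 and from 4.16 to 4.59 in replicate 2. Such comparisons across libraries restate the contrast on which the genes were chosen. The log2 ratio of Mir138-1 over Mir204 was 0.06 in replicate 1 and −1.04 in replicate 2.

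**Figure D2:**
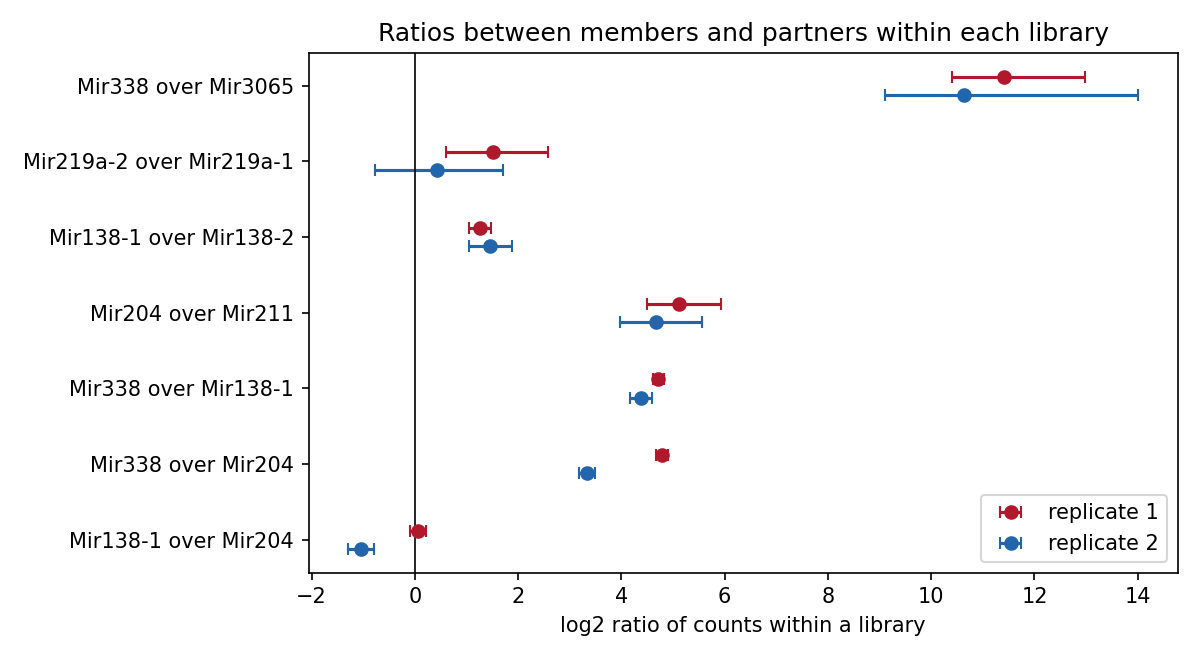
Log2 ratio of counts between genes of a pair within each library, replicate 1 in red above replicate 2 in blue, with exact binomial 95% intervals for counting error. The ratio of Mir138-1 over Mir138-2 is 1.26 and 1.45, with overlapping intervals. The ratio of Mir338 over Mir138-1 and the ratios of Mir338 and Mir138-1 over Mir204 differ between the libraries beyond their intervals.

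The same contrast was read against Mir206, a microRNA of skeletal muscle. Whether Mir206 itself was at the same level in both animals was not tested. The log2 ratio of Mir338 over Mir206 was −2.59 in replicate 1 and −4.54 in replicate 2, so Mir338 was 3.85-fold higher relative to Mir206 in replicate 1. On this scale Mir138-2 was 3.45-fold and Mir138-1 3.03-fold higher in replicate 1, while Mir219a-2 was 2.15-fold and Mir204 1.41-fold higher. Mir211, at 1.03-fold, and Mir219a-1, at 1.02-fold, had wide counting intervals. The log2 ratio of Mir211 over Mir206 had intervals of −13.29 to −11.87 in replicate 1 and −13.43 to −11.87 in replicate 2. For Mir219a-1 the intervals were −13.91 to −12.23 in replicate 1 and −14.04 to −12.20 in replicate 2.

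To place these differences among all microRNAs, the log2 ratio of replicate 1 over replicate 2 was taken from CPM plus 1 after TMM scaling, a method that removes the difference in composition shared by most genes. Of the 7 genes, 4 had a mean of at least 10 CPM, and all 4 were above 10 CPM in each library as well. The 3 that did not pass were Mir219a-2, Mir211 and Mir219a-1. Over all 261 genes that passed, the median log2 ratio was 0.05 and the median absolute log2 ratio was 0.18. With total-count scaling the median of all genes moved to 0.21.

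Mir338 had a log2 ratio of 1.63, or 3.09-fold higher in replicate 1, with a counting interval of 2.98 to 3.20-fold. Mir138-2 had 1.44, or 2.71-fold, and Mir138-1 had 1.27, or 2.41-fold. Mir204 had 0.18, or 1.13-fold, with a counting interval of 1.00 to 1.29-fold. Mir204 therefore sat among the bulk of genes, in place 81 of 261 from the highest ratio, while Mir338, Mir138-2 and Mir138-1 took places 6, 10 and 11. The median of the 4 genes was 1.35.

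Over 2-fold higher in replicate 1 were 3 of the 4 glial genes tested, against 13 of the 261 genes, or 4.98%. Over 2-fold lower in replicate 1 were 0 of the 4, against 1 gene, or 0.383%. The minimum was set on the mean. Of the genes higher in replicate 1, Mir183, Mir122, Mir363, Mir106a and Mir20b were below 10 CPM in replicate 2. Their counts there were 31, 15, 15, 19 and 22, and they passed only through replicate 1. The gene lower in replicate 1, Mir1199, was below 10 CPM in replicate 1, at 29 counts, and passed only through replicate 2. Since the genes were selected on this same contrast, nothing is read from the first share. Each ratio rests on 1 library per side, with no replicate check, and technical and animal differences cannot be told apart.

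Among the genes past 2-fold, Mir338 had the highest mean CPM. The tested genes at or above its mean CPM numbered 38, itself included, and the highest log2 ratio among the others was 0.47, for Mir196b. This too describes the contrast on which the genes were chosen.

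For the genes below 10 CPM the ratios are imprecise. Mir219a-2 had a log2 ratio of 0.70 with a counting interval of −0.08 to 1.78. Mir211 had −0.22, with an interval of −1.34 to 0.83, and Mir219a-1 had −0.22, with an interval of −1.56 to 1.01. For all 3 genes equal levels lie within the interval with TMM scaling. For Mir219a-2 this depends on the scaling, since its interval ran from 0.08 to 1.95 with total-count scaling and from 0.24 to 2.10 on the striated muscle scale. For Mir211 and Mir219a-1 equal levels lay within the interval under each of the 4 scalings. The sign of Mir211 and Mir219a-1 turned positive when the libraries were scaled to the striated muscle list.

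**Figure D3:**
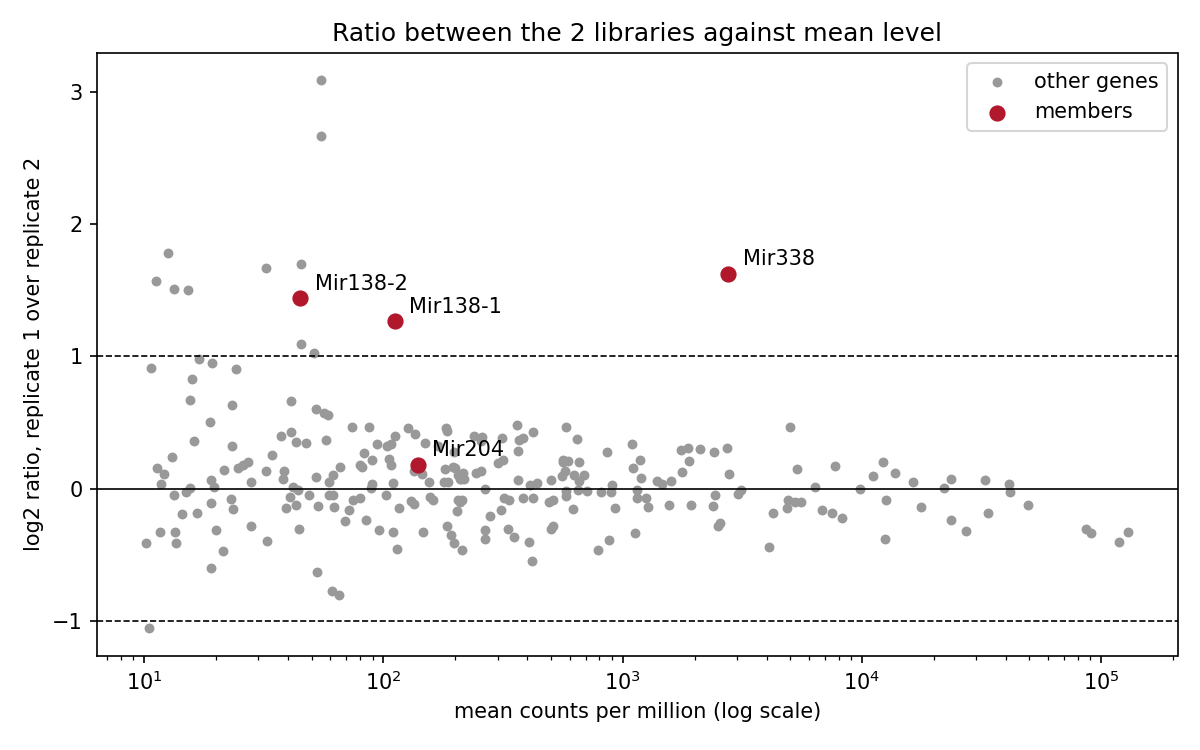
Log2 ratio of replicate 1 over replicate 2 against mean CPM on a log axis for 261 genes, with the 4 tested glial genes in red, other genes in grey and dashed lines at 2-fold. Mir338 lies at 1.63 far to the right of the other genes past 2-fold, and Mir204 at 0.18 lies within the bulk.

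Across the 2 libraries, the 5 genes with a ratio closest to that of Mir338 were Mir137, Mir363, Mir3107, Mir106a and Mir20b. Likeness was the absolute difference of log2 ratios, which ran from 0.04 for Mir137 to 0.12 for Mir20b. Mir137, known from neurons, was counted 211 times in replicate 1 and 44 times in replicate 2. For Mir3107, opposite Mir486, the counts were 295 and 61. Mir363, Mir106a and Mir20b, neighbours on the X chromosome, reached 73, 86 and 98 counts in replicate 1, against 15, 19 and 22 in replicate 2. All of these X chromosome genes were below 10 CPM in replicate 2 and passed the minimum only through replicate 1. With 2 libraries, likeness compares 1 ratio per gene. Runs that these 5 genes share with other hairpins were not examined, so reads aligned to several loci can be missing.

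Other microRNAs studied in Schwann cells or oligodendrocytes formed a list of 12. Of these, 8 were tested, and 0 of the 8 passed 2-fold in either direction, against 4.98% higher and 0.383% lower over all genes tested, so the count does not set the list apart. The list had 4 ratios above 0 and 4 below, with a median of −0.05, against 0.05 for all 261 genes. The split was 6 above and 2 below with total-count scaling, 3 and 5 with DESeq2 size factors and 7 and 1 with the striated muscle list as the scale. Mir23a, which in mice affects myelin through lamin B1, had a log2 ratio of 0.06, and Mir140, which targets the myelin regulator Egr2, had −0.15. Mir29a, which in rat Schwann cells targets the myelin protein gene Pmp22, had −0.26 and Mir17 had 0.06. These microRNAs are abundant in many cell types. Mir9-1, Mir9-2 and Mir9-3 had 0 counts in both libraries, but each shares a run of 26 to 33 bases with another hairpin, so reads aligned to several loci can be missing.

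Lists of other cell types were set beside the glial genes. Sensory neuron microRNAs were higher in replicate 1, as Mir183 was counted 412 times in replicate 1 and 31 times in replicate 2 and Mir182 had 399 and 41, with log2 ratios of 3.08 and 2.67. Mir183 was below 10 CPM in replicate 2 and passed the minimum only through replicate 1. Mir96, a neighbour of Mir183 and Mir182, had 18 and 5 counts. Summed over its 3 genes, the list took 0.0200% of counted reads in replicate 1 and 0.00239% in replicate 2. The list thus differs between the libraries in the same direction as Mir338, and its part in the result was not tested.

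Of the 13 neuronal microRNAs 4 were tested, and 1 of these, Mir137 at 1.67, passed 2-fold. Mir128-1, Mir132 and Mir128-2 had log2 ratios of −0.02, −0.17 and −0.11. The neuronal split of 1 ratio above 0 and 3 below became 3 and 1 with total-count scaling and 4 and 0 on the striated muscle scale. The list held 0.125% of counted reads in replicate 1 and 0.113% in replicate 2, and Mir124a-1, Mir124a-2 and Mir124a-3 had 0 counts in both, though each shares 32 bases with another hairpin. Of the summed counts, Mir128-1 alone gave 3542 in replicate 1 and 2492 in replicate 2, so the share follows that gene.

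Among the epithelial microRNAs 1 of 7 was tested, the keratinocyte microRNA Mir203, with a log2 ratio of −0.08 that turned to 0.08 with total-count scaling, counted 908 times in replicate 1 and 668 times in replicate 2. The list held 0.0237% of counted reads in replicate 1 and 0.0216% in replicate 2. Below 10 CPM, Mir200c had 27 and 11 counts, Mir205 had 15 and 4, and Mir200b had 13 and 6. Mir429 had 11 and 1, a log2 ratio of 1.40 that rests on few reads. Mir141 had 6 and 4, and Mir200a had 2 and 1. The liver microRNA Mir122 was higher in replicate 1, counted 85 times in replicate 1 and 15 times in replicate 2, with a log2 ratio of 1.78. Mir122 was below 10 CPM in replicate 2 and passed the minimum only through replicate 1. Whether these microRNAs bear on the difference of Mir338 was not tested.

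Muscle and vessel microRNAs had ratios below 0 or near 0 with TMM scaling. Of the 8 striated muscle microRNAs tested, 7 had ratios below 0, with a median of −0.33 and a range from −0.41 to 0.16. Mir206 had −0.32, Mir486 −0.39, Mir1a-2 −0.31 and Mir499 −0.38. The list held 2.74% of counted reads in replicate 1 and 3.04% in replicate 2. Mir206 alone gave 106820 of its 113160 counts in replicate 1 and 92373 of 98014 in replicate 2. The share and the striated muscle scale therefore mostly follow Mir206, and that scale is not separate from the ratios over Mir206. Runs shared with other hairpins were not examined for this list. Its share, its ratios and the scale set by it can therefore lack reads aligned to several loci. Mir126a of endothelium had −0.33, and Mir143 and Mir145a of smooth muscle had −0.30 and −0.28. The red cell microRNAs Mir451a and Mir144 had −0.16 and 0.01. Of the genes tested in these lists, 0 passed 2-fold, against 4.98% higher and 0.383% lower over all genes tested, so nothing is read from that count. For striated muscle, 7 of the 8 ratios were also below 0 with total-count scaling and with DESeq2 size factors, and 5 of 8 when the striated muscle list itself set the scale. On that last scale both smooth muscle ratios were above 0, and Mir126a had −0.01. Both red cell ratios were above 0 with total-count scaling and on the muscle scale, and below 0 with DESeq2 size factors.

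**Figure D4:**
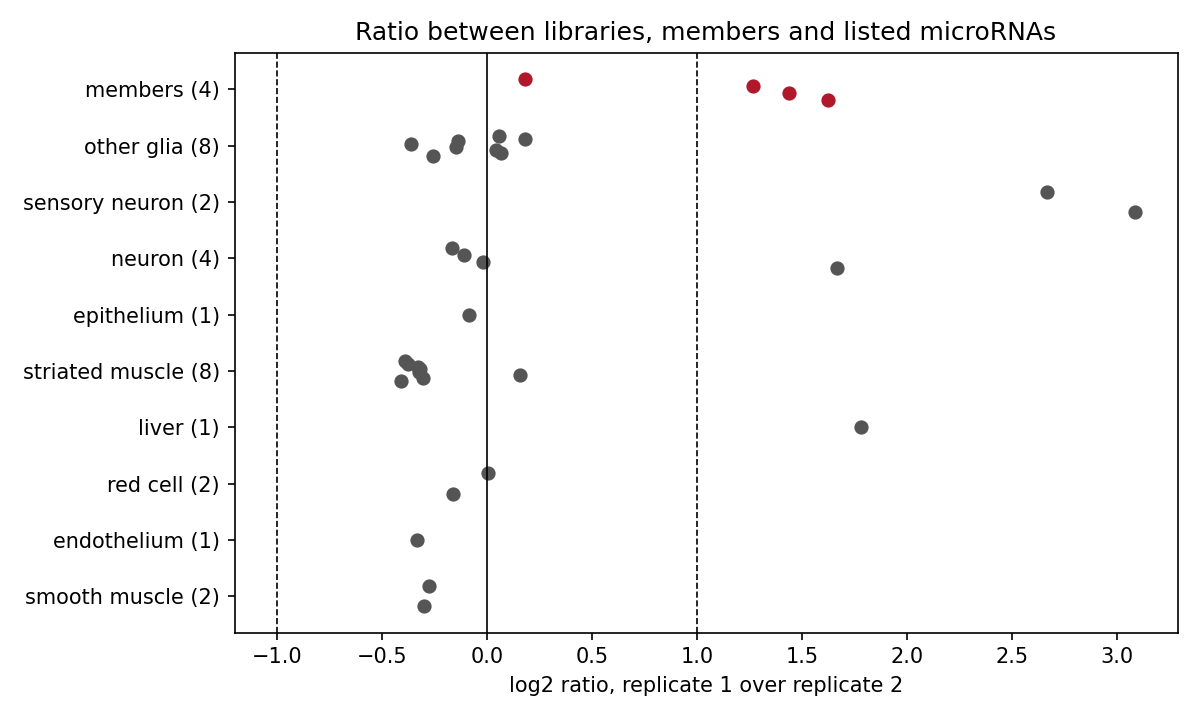
Log2 ratio of replicate 1 over replicate 2 for each tested gene, by list, with the number tested in brackets, the glial genes in red and dashed lines at 2-fold. Mir338, Mir138-2 and Mir138-1 lie between 1.27 and 1.63, the other glia list lies between −0.36 and 0.18, and the sensory neuron genes lie at 2.67 and 3.08.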

How the data were processed

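The authors deposited whole-number read counts per microRNA gene, 1 table per library, on mm10 with GENCODE M21, per the labels and the file descriptions. Aligner, counter and trimming: not given in the sources used here. The same-strand column was used, and library sizes leave out the rows without a gene name. The columns that ignore or oppose the strand were read from how genes on opposite strands mirror each other. Levels are CPM, and ratios between libraries use CPM plus 1 with TMM factors of 1.06 and 0.944 from edgeR 4.0.16 in R 4.3.3. A minimum mean of 10 CPM was applied. DESeq2 1.42.0 gave alternative size factors. No p-value was computed, because there is 1 group and the genes were chosen with these results known. The ratio script was tested on simulated data.

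Members and lists were chosen with earlier results of these data known. Named genes were all 7 members, microRNAs opposite them, the 5 genes closest in ratio to Mir338, and, per list, the 4 highest in mean CPM and any past 2-fold. Those of lower level that are named besides were chosen after their values were seen. Intervals and limits from a count of 0, taken as 3 counts, cover counting error alone, as reads copied by PCR are not separate molecules.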

Additional observations from a re-analysis of the deposited data

How the results depend on the processing

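Mir338 had log2 ratios of replicate 1 over replicate 2 of 1.79 with total-count scaling and 1.57 with DESeq2 size factors. Scaled to the striated muscle list, which mostly follows Mir206, Mir338 had 1.95. Its mean was 568 CPM of all reads and 0 CPM where strand was ignored. Without 1 replicate, the mean ran from 1236 to 4285 CPM. The genes over 2-fold higher in replicate 1 numbered 13 of 261 in the main setting. With no minimum they numbered 29 of the 639 genes with a count in either library. At a minimum of 100 CPM they numbered 2 of 165, Mir338 and Mir138-1. Mir138-1 passed this minimum only through replicate 1, at 163 CPM, against 59.6 CPM in replicate 2. The count was 17 with total-count scaling and 12 with DESeq2 size factors. It was 14 and 11 with pseudocounts of 0.25 and 5 CPM, and 18 scaled to the muscle list. Those over 2-fold lower numbered 12 with no minimum, and 0 at 100 CPM, with total-count scaling, with a pseudocount of 5 CPM, or scaled to the muscle list, a count added after seeing the data. Glial genes over 2-fold higher numbered 3 under each scaling and pseudocount and with no minimum, and 2 at 100 CPM, which leaves out Mir138-2. As the genes were selected on this same contrast, nothing is read from these numbers. The ratio of Mir204 ran from 0.13 to 0.50 over the alternatives run. Where strand was ignored, Mir338 and both Mir219a genes gave no ratio. No paired analysis was possible because there is 1 group. Depth limits Mir219a-1, Mir219a-2 and Mir211, at 11 to 38 counts.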

Other observations

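The seed of miR-204-5p and miR-211-5p was also found in miR-7670-3p, whose gene Mir7670 had 1 count in replicate 1 and 4 in replicate 2. The seed of the other arm, miR-204-3p, was also found in miR-7684-5p, whose gene Mir7684 had 0 counts in both libraries. The hairpins of the 7 glial genes ranged in GC content from 48.5% for Mir204 to 69.1% for Mir219a-1.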
